A study of Mus musculus with 16 samples.

Results

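The FGF-ERK feedback genes examined here are 9 of the 53379 genes counted in Sox2 immunoprecipitation (IP) and input libraries of male mouse embryonic stem cells (mESC). They were taken by symbol, namely the ligand Fgf4, the receptor Fgfr1, the ETS factors Etv4 and Etv5, the phosphatases Dusp4 and Dusp6, and the inhibitors Spry2, Spry4 and Spred1, and all 9 passed the filter on low counts. The cells were crosslinked either with UV light (UV-RIP), which joins protein to RNA in direct contact, or with formaldehyde (fRIP), which also joins proteins to each other, and RNA was recovered with an antibody to Sox2. There were 4 IP and 4 input libraries for each crosslinker, numbered 3 to 6, from 8 distinct plates, and an IP and an input of the same number came from the same lysate.

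All 16 libraries came from the same line of cells, isolated from male blastocysts and grown on gelatin in serum with leukemia inhibitory factor (LIF) at 1000 U/mL, the MEK inhibitor PD0325901 at 1 μM and the GSK3 inhibitor CHIR99021 at 3 μM. No library without PD0325901 was analysed here, so the levels below are levels under MEK inhibition, and what inhibition itself does to them cannot be tested. No library from an unrelated antibody was analysed here either, so an IP is compared only with its input. The input libraries held a summed 2456 to 2639 CPM (counts scaled to the library total) of 10 markers of naive mESC in UV-RIP and 3966 to 4441 in fRIP, with Sox2 at 0 in every library. Sox2 lies within the gene body of Sox2ot, and how reads in such overlaps were assigned is not given in the sources used here, so the 0 is not read as a level and the sum rests on the other 9 markers. Markers of fibroblasts summed to at most 3.30 CPM and those of primitive endoderm to at most 9.48 CPM in any input, while formative or primed markers summed to 74.1 to 76.0 CPM in the UV-RIP inputs and 106 to 130 in the fRIP inputs, of which Dnmt3b alone made up 70.7 to 73.7 and 100 to 125 CPM.

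Fibroblast growth factor binds a receptor tyrosine kinase and, through adaptors, Ras, Raf and MEK, activates the kinase ERK. Active ERK induces genes that shut the pathway down again, among them the DUSP phosphatases, which remove phosphate from ERK, and the Sprouty and Spred proteins, which act on the steps from receptor to Raf. Autocrine Fgf4 drives this pathway in mESC and primes them for differentiation, and a MEK inhibitor is used to hold them in the naive state. Fgf4 is also a classical target of Sox2, which binds an enhancer of that gene together with Oct4.

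Promoter sequence was taken for 5 of the 9 genes, Dusp6, Spry2, Spred1, Etv5 and Fgf4, from RefSeq on GRCm38.p6. Windows on the chromosome of Spry4 were left out beforehand, so its lack of a window is not a failed match. Windows run from 250 bases before the start of transcription to 50 after it. Those shown are of Etv5 and Fgf4, whose enrichment differed between the crosslinkers, of Spry2, whose input level differed most between them, and of Dusp6, the member with the lowest ratio of IP to input in fRIP. Capitals mark the core CCGGAA bound by ETS factors and the GC box GGGCGG, searched on both strands, so that CCGCCC and TTCCGG count too, and a base can belong to both. The Fgf4 window is chr7:144861136-144861435 on the plus strand and holds 2 GC boxes.
Fgf4: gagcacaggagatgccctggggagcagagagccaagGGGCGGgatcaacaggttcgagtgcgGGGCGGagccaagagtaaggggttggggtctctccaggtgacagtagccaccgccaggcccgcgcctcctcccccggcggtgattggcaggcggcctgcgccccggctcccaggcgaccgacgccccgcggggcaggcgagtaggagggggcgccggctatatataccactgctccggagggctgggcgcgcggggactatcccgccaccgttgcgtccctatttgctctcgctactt
The first of 2 Etv5 windows is chr16:22439521-22439820 on the minus strand and holds 3 GC boxes, while the other, chr16:22438319-22438618, holds 0 and has a GC content of 60.0%.
Etv5: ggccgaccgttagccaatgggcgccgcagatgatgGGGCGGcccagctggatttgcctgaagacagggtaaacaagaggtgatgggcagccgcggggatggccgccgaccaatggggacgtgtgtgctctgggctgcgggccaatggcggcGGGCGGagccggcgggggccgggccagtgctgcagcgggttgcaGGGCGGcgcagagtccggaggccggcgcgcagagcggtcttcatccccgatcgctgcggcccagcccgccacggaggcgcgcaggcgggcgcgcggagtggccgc
The Spry2 window is chr14:105896770-105897069 on the minus strand, and the single CCGGAA found in the 6 matched windows lies there.
Spry2: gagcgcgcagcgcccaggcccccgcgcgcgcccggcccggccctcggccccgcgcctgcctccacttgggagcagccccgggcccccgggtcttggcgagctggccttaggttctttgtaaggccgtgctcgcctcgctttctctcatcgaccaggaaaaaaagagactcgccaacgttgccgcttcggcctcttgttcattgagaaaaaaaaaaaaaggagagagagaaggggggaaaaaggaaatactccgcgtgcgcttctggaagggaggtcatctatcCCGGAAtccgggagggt
The Dusp6 window is chr10:99262981-99263280 on the plus strand and holds neither motif.
Dusp6: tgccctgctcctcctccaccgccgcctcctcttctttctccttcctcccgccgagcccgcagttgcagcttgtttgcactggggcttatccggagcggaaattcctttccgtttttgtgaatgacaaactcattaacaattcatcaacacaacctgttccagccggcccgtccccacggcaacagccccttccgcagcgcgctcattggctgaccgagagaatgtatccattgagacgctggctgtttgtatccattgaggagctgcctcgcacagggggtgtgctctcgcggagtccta
Of all 32851 promoter windows, 14.9% held CCGGAA and 35.7% held GGGCGG. The GC content of the windows was 57.3% for Dusp6, 62.7% for Spry2, 74.0% for the first of Etv5 and 69.7% for Fgf4, and the median of all windows was 52.7%. A match is a string of letters and was not tested as a site.

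The authors counted unique molecular identifiers (UMIs), each of which stands for an original RNA fragment, over whole gene bodies, introns included. Totals were 14218784 to 17281596 UMIs in the UV-RIP IPs, 12456298 to 13828610 in their inputs, 17728081 to 21211537 in the fRIP IPs and 13627606 to 15381686 in their inputs. The transcript Gm26917 alone took 18.35% to 22.34% of the UMIs in the UV-RIP IPs against 12.03% to 12.29% in their inputs, and 5.44% to 12.43% in the fRIP IPs against 5.46% to 8.49%. With total UMIs as library size, the log2 fold changes of the 22936 genes tested had a median of -0.17 in UV-RIP and -0.03 in fRIP. When library sizes left out Gm26917 and Gm42418 the UV-RIP median was -0.02, and scaling by TMM brought the UV-RIP median to 0.01 and the share of higher genes among all calls from 18.57% to 52.27%.

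A pair of fRIP libraries stood apart from the rest of their groups. The chi-square per degree of freedom between the counts of 2 libraries was 38.3 to 60.0 for the fRIP IP of replicate 5 against the other 3 and 5.27 to 6.11 among those, and 41.0 to 51.9 for the fRIP input of replicate 4 and 3.17 to 13.5 among the other inputs, while it was at most 8.33 in UV-RIP. The fRIP comparison gave 2 higher and 4 lower members with all libraries and without replicate 4, and 2 and 3 without replicate 5, where Spred1 was lost.

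In the inputs the 9 genes spanned a range of 2 orders of magnitude per kb of gene body, with Fgf4, Etv5 and Spry2 at the top and the feedback inhibitors Spry4 and Dusp4 at the bottom. Fgf4, the ligand, had 11.2 ± 0.174 CPM per kb of gene body in the UV-RIP inputs (SD, n = 4), more than 98% of 21865 protein-coding genes. Etv5, an ETS factor of the PEA3 group, had 6.29 ± 0.453 CPM per kb, and Spry2, a Sprouty inhibitor, had 5.97 ± 0.117 (SD, n = 4 each). The ranges of Etv5 and Spry2 overlapped in UV-RIP, whereas Fgf4 stood above both and both stood above the rest. Fgfr1, the receptor that mESC mainly use for Fgf4, followed at 1.46 ± 0.0516 CPM per kb, and Spred1 at 0.949 ± 0.0424 and Dusp6 at 0.902 ± 0.0622 overlapped each other (SD, n = 4 each). Etv4, the paralog of Etv5, had 0.636 ± 0.0551 CPM per kb, Spry4 0.187 ± 0.0159 and Dusp4 0.0971 ± 0.0209 (SD, n = 4 each), with no overlap between neighbours. Dusp4 was above 47.1% of protein-coding genes, and its level rested on 12 to 20 UMIs per UV-RIP input.

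**Figure D1:**
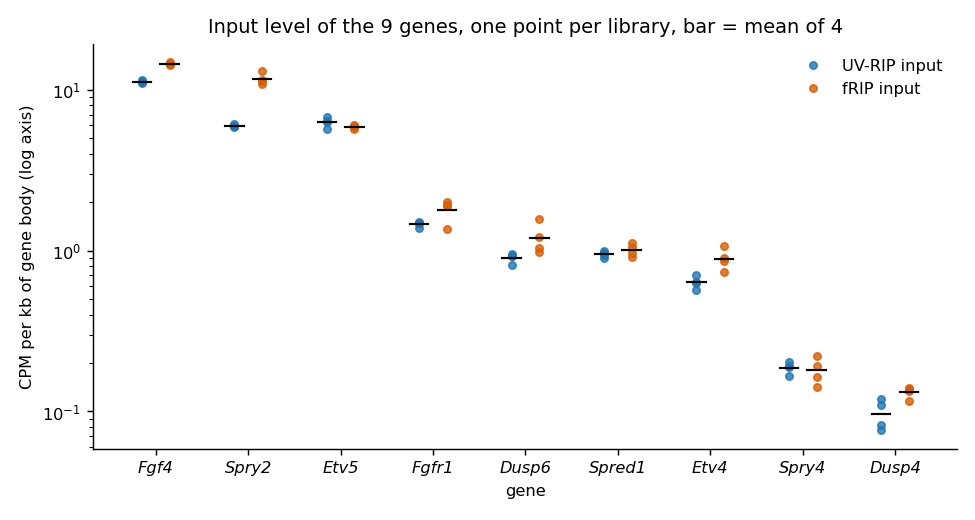
Input level of each gene in CPM per kb of gene body on a log axis, one point per library and a bar at the mean of 4, for UV-RIP (blue) and fRIP (orange). Fgf4 is highest in both, from 11.0 to 14.8 CPM per kb, Dusp4 is lowest at or below 0.139, and Spry2 is the gene whose inputs lie furthest apart.

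The fRIP inputs gave nearly the same order. Fgf4 again led at 14.5 ± 0.225 CPM per kb of gene body (SD, n = 4), but Spry2 now came second at 11.7 ± 1.01, apart from Etv5 at 5.88 ± 0.131 (SD, n = 4 each). Fgfr1, Dusp6, Spred1 and Etv4, from 1.79 ± 0.290 down to 0.891 ± 0.139 CPM per kb (SD, n = 4 each), each overlapped the next in order. Spry4 at 0.180 ± 0.0341 and Dusp4 at 0.132 ± 0.0105 CPM per kb were again the last (SD, n = 4 each). The level of the highest gene was 115.65 times that of the lowest in UV-RIP and 109.79 times in fRIP.

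The order at the top depends on what is taken as length. Etv5 has a gene body of 58.4 kb of which 93.0% is intron, and per kb of merged exons it was first, at 89.5 ± 6.45 CPM in the UV-RIP inputs (SD, n = 4), with Fgf4 second at 62.8 ± 0.972. In the fRIP inputs the 2 genes overlapped on that scale, at 83.7 ± 1.87 and 81.0 ± 1.26 CPM (SD, n = 4 each). The annotated gene body of Fgf4 begins 14019 bases upstream of its RefSeq start, and how many UMIs fall in that stretch cannot be read from these counts. Spry4 and Dusp4 were last on both scales, and on exons they overlapped. UMIs from introns and exons cannot be told apart in these counts.

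The annotated gene bodies differ widely in size. On GRCm38, Dusp6 (chr10:99263231-99267489, plus strand) and Spry2 (chr14:105891947-105896819, minus strand) are the shortest, at 4.26 and 4.87 kb. Fgfr1 (chr8:25513654-25575718, plus strand), Spred1 (chr2:117121374-117182279, plus strand) and Etv5 (chr16:22381309-22439719, minus strand) are the longest, at 62.1, 60.9 and 58.4 kb. Dusp4 (chr8:34807297-34819894, plus strand), Etv4 (chr11:101769742-101785371, minus strand) and Fgf4 (chr7:144847367-144865243, plus strand) lie between, at 12.6, 15.6 and 17.9 kb. The antisense transcript Gm16159 overlaps 7423 bases of Fgfr1 and had at most 16 UMIs in any library. No strand setting is given in the sources used here, so reads of the pair may be mixed. Since the assignment of reads in overlaps is not given either, the count of Gm16159 cannot show whether reads of Fgfr1 were lost there.

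The comparison of IP with input asks which of these RNAs were recovered with Sox2. Of the 9 genes, 1 (Fgfr1) was higher in the UV-RIP IP and 4 (Dusp6, Spry2, Spred1 and Fgf4) were lower, at a Benjamini-Hochberg adjusted p below 0.05 in edgeR's quasi-likelihood fit. Among all genes tested, 6.6% were higher and 29% were lower by the same rule. In fRIP, 2 of the 9 (Etv5 and Fgfr1) were higher and the same 4 lower, where 17.6% of all genes were higher and 21.9% lower. Only Dusp6 in fRIP also passed a fold of 1.5, and no member was higher by that much in either crosslinker. The background by that stricter rule was 10.7% lower and 8.8% higher in fRIP, and 5.53% lower and 0.68% higher in UV-RIP. The median log2 fold change over the 9 was 0.01 in UV-RIP and -0.27 in fRIP, beside -0.17 and -0.03 over all genes tested. Of the 9 naive mESC markers tested, 6 were lower and 0 higher in the UV-RIP IP, and 5 were lower and 1 higher in the fRIP IP, and their part in the result was not tested.

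**Figure D2:**
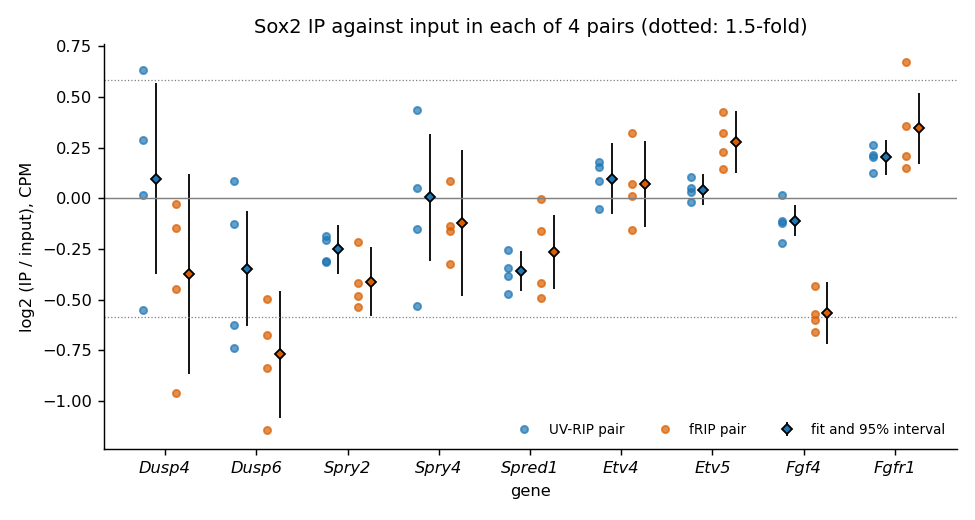
The log2 ratio of IP to input, in CPM, for each gene in each of 4 pairs (circles) with the edgeR estimate and its 95% interval (diamonds), for UV-RIP (blue) and fRIP (orange). The 4 fRIP pairs of Fgf4 lie between -0.66 and -0.43 and those of Etv5 between 0.14 and 0.43, while Dusp4 and Spry4, with few UMIs, have the widest intervals for their size of change.

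Fgf4, the ligand, had 183, 199, 173 and 189 CPM in the UV-RIP IPs of replicates 3 to 6 and 200, 197, 202 and 204 in their inputs. The ranges overlapped, since the IP of replicate 4 lay above its own input while the other 3 lay below theirs. Its log2 fold change in UV-RIP was -0.11 with a standard error of 0.04 (adjusted p = 0.0197, edgeR). That value lies above 56.4% of all genes tested, and under TMM scaling it turned to 0.07 and was not past the threshold (adjusted p = 0.125). Without the replicate block it was -0.11 (adjusted p = 0.0935), and without replicate 3, 5 or 6 the threshold was also missed.

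In fRIP Fgf4 was lower in the IP. It had 168, 168, 175 and 190 CPM in the IPs of replicates 3 to 6 and 255, 264, 260 and 257 in the inputs. Every IP lay below every input, and the highest IP was that of replicate 6. In the fit its log2 fold change was -0.57 with a standard error of 0.07 (adjusted p = 1.09e-06, edgeR), a ratio of 0.675 (95% interval 0.607 to 0.751). The direction and the call held under TMM scaling (-0.52) and after a trend on gene length (-0.46) or on GC content (-0.63) was removed. For the length trend Fgf4 was placed at its annotated 17.9 kb, which begins 14019 bases upstream of the RefSeq start. A length counted from the RefSeq start was not tried, so how the call depends on length is not settled by that fit. The UV-RIP and fRIP values differed by -0.46 with a standard error of 0.08 (adjusted p = 0.000102, edgeR interaction test), the largest difference between the crosslinkers, in relation to its error, among the 9.

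Fgfr1, the receptor, was the member higher in the IP under both crosslinkers. In UV-RIP it had 103, 100, 107 and 107 CPM in the IPs of replicates 3 to 6 and 86.1, 91.8, 92.7 and 92.8 in the inputs. Every IP was above every input, and the lowest input was that of replicate 3. Fgfr1 had a log2 fold change of 0.20 with a standard error of 0.04 (adjusted p = 2.07e-05, edgeR), above 82% of all genes tested, and it was 0.38 under TMM scaling.

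In fRIP Fgfr1 had 138, 135, 152 and 137 CPM in the IPs of replicates 3 to 6 and 124, 84.8, 118 and 118 in the inputs. Again no IP overlapped an input, but the input of replicate 4 stood well below the other 3. The log2 fold change was 0.35 with a standard error of 0.09 (adjusted p = 0.00191, edgeR), and with a trend on gene length removed it was 0.21 and missed the threshold (adjusted p = 0.0635). Its difference from UV-RIP of 0.14 (95% interval -0.06 to 0.34) did not pass the interaction test (adjusted p = 0.33 from edgeR).

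Set against each other within a library, where no library size enters, the receptor and the ligand separated IP from input. The ratio of Fgfr1 to Fgf4 UMIs was 0.431 to 0.466 in the UV-RIP inputs and 0.503 to 0.616 in the IPs. In fRIP it was 0.321 to 0.487 in the inputs and 0.719 to 0.868 in the IPs. IP and input did not overlap under either crosslinker. In UV-RIP and in fRIP they did overlap for the other 3 ratios formed, Etv5 to Etv4, Dusp6 to Dusp4 and Spry2 to Spry4.

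The ETS factors Etv4 and Etv5 are transcribed in response to ERK and carry its signal to further genes. Etv5 had 362, 340, 427 and 387 CPM in the UV-RIP IPs of replicates 3 to 6 and 367, 333, 397 and 373 in the inputs. Each IP followed its own input closely, and the ranges overlapped. Its log2 fold change of 0.04 (standard error 0.04) did not pass the test (adjusted p = 0.442 from edgeR), but it lies above 71% of all genes tested, and under TMM scaling it was 0.22 and past the threshold (adjusted p = 1.52e-10).

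In fRIP Etv5 had 436, 449, 387 and 400 CPM in the IPs of replicates 3 to 6 and 349, 334, 350 and 341 in the inputs. All 4 IPs lay above all 4 inputs, with replicates 3 and 4 the highest. This gave a log2 fold change of 0.28 with a standard error of 0.07 (adjusted p = 0.0034, edgeR), and with a trend on gene length removed it was 0.15 and not past the threshold (adjusted p = 0.114). The difference from UV-RIP was 0.24 with a standard error of 0.08 (adjusted p = 0.025, edgeR interaction test). It was not past the threshold without the replicate block (adjusted p = 0.122), under TMM scaling (0.12, adjusted p = 0.23) or without UV replicate 3, 4 or 6 or fRIP replicate 3 (0.22 to 0.24), and it turned to -0.04 with the length trend removed.

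Etv4 did not pass the test in either crosslinker. It had 11.7, 9.49, 11.1 and 10.1 CPM in the UV-RIP IPs of replicates 3 to 6 and 11.0, 9.85, 9.99 and 8.89 in the inputs. In fRIP the IPs had 14.2, 16.8, 17.5 and 10.3 CPM and the inputs 14.1, 13.4, 16.7 and 11.4. IP and input overlapped throughout, and the fRIP pair of replicate 6 was the lowest in both. The log2 fold changes were 0.10 (95% interval -0.08 to 0.27, adjusted p = 0.479 from edgeR) and 0.07 (95% interval -0.14 to 0.28, adjusted p = 0.66 from edgeR). Under TMM scaling the UV-RIP value was 0.28 and past the threshold (adjusted p = 0.00854).

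Dusp6, the cytoplasmic phosphatase that acts on ERK and is widely used as a readout of the pathway, had 3.66, 3.59, 2.56 and 2.43 CPM in the UV-RIP IPs of replicates 3 to 6. The inputs had 3.45, 3.92, 3.94 and 4.05 CPM. Replicates 5 and 6 of the IP were low, while replicates 3 and 4 lay close to their inputs, and the ranges overlapped. The log2 fold change of -0.35 (standard error 0.15) was at the threshold (adjusted p = 0.049 from edgeR). It was past it neither without replicate 5 (-0.26) or 6 (-0.22), nor without the replicate block (adjusted p = 0.0925), nor under TMM scaling (-0.17).

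In fRIP Dusp6 had 2.88, 4.18, 2.97 and 1.99 CPM in the IPs of replicates 3 to 6 and 5.14, 6.68, 4.20 and 4.40 in the inputs. Every IP was below every input, if narrowly for the IP of replicate 4 and the input of replicate 5. Dusp6 had a log2 fold change of -0.77 with a standard error of 0.15 (adjusted p = 0.000197, edgeR), a ratio of 0.587 (95% interval 0.473 to 0.729) that lies above 13.2% of all genes tested. With a trend on gene length removed it was -0.35 and not past the threshold (adjusted p = 0.0772). The difference from UV-RIP was -0.42 (95% interval -0.86 to 0.03) and did not pass the interaction test (adjusted p = 0.173 from edgeR).

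Dusp4, a nuclear phosphatase of the same family, was counted too rarely for a firm statement. It had 1.05, 1.49, 1.03 and 1.68 CPM in the UV-RIP IPs of replicates 3 to 6 and 1.04, 0.961, 1.51 and 1.37 in the inputs, and in fRIP 0.902, 1.65, 1.27 and 1.33 in the IPs and 1.76, 1.69, 1.74 and 1.47 in the inputs. The ranges overlapped under both crosslinkers, although each fRIP IP was below its own input. The fitted log2 fold changes were 0.10 (95% interval -0.37 to 0.57, adjusted p = 0.826 from edgeR) and -0.38 (95% interval -0.87 to 0.12, adjusted p = 0.241 from edgeR). With 12 to 34 UMIs per library, a change of less than these intervals was not detectable.

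Spry2, which restrains receptor signalling upstream of Ras and Raf, was lower in the IP under both crosslinkers. In UV-RIP it had 24.1, 23.0, 25.4 and 25.1 CPM in the IPs of replicates 3 to 6 and 29.9, 28.5, 28.9 and 29.0 in the inputs. In fRIP the IPs had 39.3, 45.3, 47.9 and 38.6 CPM and the inputs 54.9, 52.7, 64.0 and 55.8. No IP reached an input in either set, and both fRIP groups were far above both UV-RIP groups. Fitted log2 fold changes of Spry2 were -0.25 in UV-RIP with a standard error of 0.06 (adjusted p = 0.000215, edgeR) and -0.41 in fRIP with a standard error of 0.08 (adjusted p = 0.000254, edgeR).

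Under TMM scaling the UV-RIP value of Spry2 was -0.07 and not past the threshold (adjusted p = 0.469), and with a trend on gene length removed the fRIP value was -0.02 (adjusted p = 0.914). The difference between the crosslinkers was -0.16 (95% interval -0.36 to 0.05, adjusted p = 0.28 from edgeR). It was past the threshold without fRIP replicate 4 (-0.22) and under TMM scaling (-0.28, adjusted p = 0.0301).

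Spred1, a Sprouty-related inhibitor that brings the Ras GAP neurofibromin to the membrane, had 41.6, 41.7, 48.9 and 47.9 CPM in the UV-RIP IPs of replicates 3 to 6. The inputs had 57.6, 54.4, 58.4 and 60.7 CPM. The groups did not overlap, and the log2 fold change of -0.36 with a standard error of 0.05 (adjusted p = 8.8e-12, edgeR) was the strongest call of the 9 in UV-RIP. It was -0.18 and still past the threshold under TMM scaling (adjusted p = 0.00121), but 0.04 and not past it with a trend on GC content removed (adjusted p = 0.702).

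In fRIP Spred1 had 61.0, 58.6, 39.6 and 48.0 CPM in the IPs of replicates 3 to 6 and 68.2, 58.7, 55.8 and 64.1 in the inputs. Here the ranges overlapped, with the IP of replicate 4 level with its input and those of 5 and 6 well below. Spred1 had a log2 fold change of -0.27 with a standard error of 0.09 (adjusted p = 0.0177, edgeR). Without replicate 5 it was -0.19, without replicate 6 it was -0.22 and without the block it was -0.25 (adjusted p = 0.13), none of them past the threshold, and it turned to 0.02 with a trend on GC content removed.

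Spry4, the Sprouty member often used as a marker of ERK output, showed no difference beyond the replicate spread. It had 2.11, 2.24, 2.98 and 3.82 CPM in the UV-RIP IPs of replicates 3 to 6 and 3.05, 2.48, 2.88 and 2.82 in the inputs. In fRIP the IPs had 1.97, 3.50, 2.59 and 1.94 CPM and the inputs 2.47, 3.30, 2.89 and 2.13. The UV-RIP pairs went both ways and all groups overlapped. The log2 fold changes were 0.01 (95% interval -0.31 to 0.32, adjusted p = 0.99 from edgeR) and -0.12 (95% interval -0.48 to 0.24, adjusted p = 0.653 from edgeR).

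The GC content of the annotated transcripts, which the choice of the 9 genes did not use, ran in a similar order to their UV-RIP values. Spred1, at 41.5% GC, and Spry2, at 46.2%, had log2 fold changes of -0.36 and -0.25, whereas Fgfr1, at 54.9%, and Etv4, at 60.2%, had 0.20 and 0.10. The Spearman correlation over the 9 genes was 0.917 in UV-RIP and 0.55 in fRIP. Across 10200 well-counted genes, whose mean reached 100 UMIs, it was 0.574 and 0.316, the same sign as over the 9. The medians of these genes did not rise throughout, since in the 29 genes at 65 to 70% GC they were 0.04 in UV-RIP and -0.17 in fRIP, below those of the preceding bin. With gene length the correlations over the 9 were 0.283 in UV-RIP and 0.7 in fRIP, beside 0.205 and 0.569 over 10208 genes. These are descriptions across genes that share libraries, and genes are not independent replicates.

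**Figure D3:**
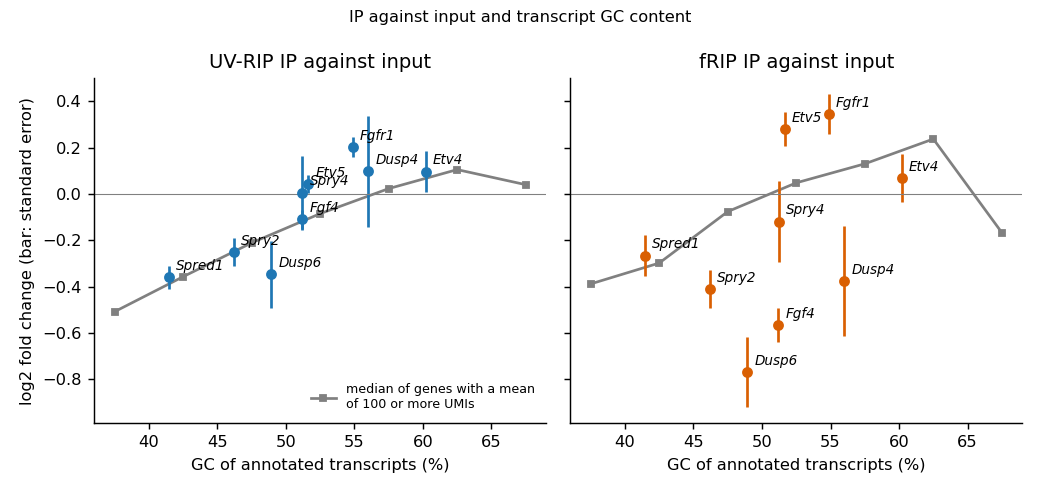
The log2 fold change of IP against input (bars show the standard error) plotted against the GC content of the annotated transcripts for the 9 genes, in UV-RIP (left) and fRIP (right), with the median of well-counted genes (mean of at least 100 UMIs) in bins of 5% GC (grey). In UV-RIP the medians run from -0.51 at 35 to 40% GC to 0.11 at 60 to 65% and most members lie near them, with Fgfr1 above its bin's median of -0.09, while in fRIP Dusp6 at -0.77 and Fgf4 at -0.57 lie far below the medians of -0.08 and 0.05 in their bins.

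The inputs of the crosslinkers were also compared, to see whether the RNA available to the IP differed. Of the 9 genes, 4 (Spry2, Etv4, Fgf4 and Fgfr1) were higher in the fRIP inputs and none was lower at an adjusted p below 0.05 from edgeR, where 20.2% of all genes were higher and 17% lower. Spry2 was 1.95 times as high (log2 difference 0.97 with a standard error of 0.08, adjusted p = 2.77e-07, edgeR), with every fRIP input above every UV-RIP input. The log2 difference was 0.49 for Etv4 with a standard error of 0.12 (adjusted p = 0.00478, edgeR) and 0.37 for Fgf4 with a standard error of 0.06 (adjusted p = 0.000134, edgeR), again without overlap. For Fgfr1 it was 0.29 with a standard error of 0.10 (adjusted p = 0.0277, edgeR), with overlap because of fRIP replicate 4, and it passed the threshold in only 1 of the 8 fits that left out an input library, the one without fRIP replicate 4. It was also missed, at 0.20, when library sizes left out Gm26917 and Gm42418 (adjusted p = 0.147).

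Dusp6 and Dusp4 had differences of a similar size that did not pass, at 0.41 (adjusted p = 0.0611 from edgeR) and 0.43 (adjusted p = 0.154 from edgeR), and Dusp6 did pass without fRIP replicate 5 (0.49) or 6 (0.47). Etv5, Spry4 and Spred1 had differences of -0.10, -0.06 and 0.09, with intervals that reached from -0.44 to 0.33 for Spry4, the widest. Only Spry2 passed a fold of 1.5, as did 10.6% of all genes in that direction, with 9.44% in the other. Markers moved with the same contrast. Of 9 naive mESC markers tested, 6 were higher in the fRIP inputs, with a median log2 difference of 0.87. Tbx3, one of these markers, was the gene whose level over the 16 libraries was most like that of Spry2 (Pearson r = 0.992 among 10208 genes). That match is the best of all genes searched, over libraries that hold this same contrast, so it is no separate evidence. Of the trophectoderm markers tested, 4 of 5 were higher too, none of them above 5.79 CPM in any input, and Cdx2 was at 0 in UV-RIP. The summed level was 53.7 to 59.2 CPM in the UV-RIP inputs and 62.8 to 73.8 in the fRIP inputs, and most of it was Tfap2c, the marker that did not pass, at 49.2 to 55.8 and 49.8 to 61.2 CPM. Of the formative or primed markers 2 of 5, of those of primitive endoderm 3 of 6, and of those of fibroblasts 1 of 3, were also higher in the fRIP inputs. The part of these in the differences was not tested. Crosslinker, plates and recovery of RNA cannot be told apart, and neither can fewer cells of a kind and less RNA per cell.

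**Figure D4:**
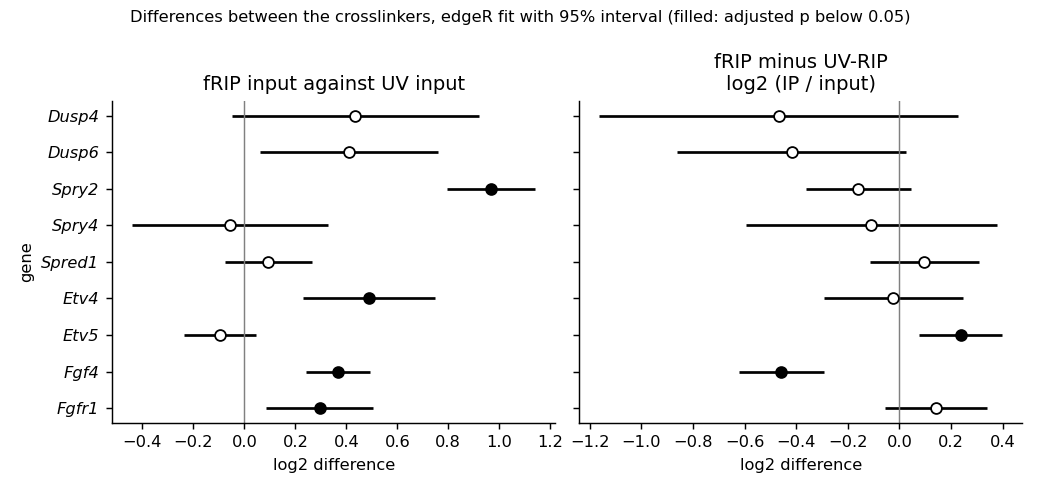
The log2 difference between fRIP and UV-RIP in the inputs (left) and in the ratio of IP to input (right) for each gene, with the 95% interval from edgeR and filled points where the adjusted p is below 0.05. In the inputs Spry2 lies furthest out at 0.97, and in the ratio of IP to input Etv5 at 0.24 and Fgf4 at -0.46 are filled, on opposite sides of 0.

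Enrichment differed between crosslinkers for 2 members, higher in fRIP for Etv5 and lower for Fgf4, where 18.6% of all genes tested were higher and 8.07% lower. Neither passed a fold of 1.5, as 7.87% of all genes did upward and 2.69% downward. The share of higher genes among all these calls was 69.72%, and it was 52.15% under TMM scaling, which moved the median of all genes from 0.15 to 0.03. For the other 7 the intervals of the difference all included 0, and the widest was that of Dusp4, from -1.16 to 0.23.

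Over the 16 libraries each member was matched to the gene of most similar level among 10208 well-counted genes. Dusp4, Dusp6 and Spry4 have too few UMIs to be candidates in that search. With only 9 genes on the list, a best match outside it was nearly fixed beforehand. It does not show whether the members vary together. On log2(CPM + 0.5), Pearson's r was 0.980 for Fgfr1 with Nfic, 0.973 for Spred1 with Zfp654, 0.965 for Fgf4 with Cox5a, 0.939 for Etv5 with Prkca and 0.872 for Etv4 with Rarg. For the genes with few UMIs it was 0.863 for Dusp6 with Tmem167b, 0.802 for Spry4 with Tnip2 and 0.757 for Dusp4 with Slc30a2. Among the members themselves the closest pair was Spry2 and Etv4, at 0.742. The libraries fall into 4 groups that share a crosslinker and a step, so these values describe the groups as much as the genes. Ratios of paralogs within a library were compared between the inputs. The ratio of Etv5 to Etv4 UMIs was 33.3 to 41.9 in the UV-RIP inputs and 20.9 to 29.8 in the fRIP inputs, and the ratio of Spry2 to Spry4 was 9.79 to 11.5 and 15.9 to 26.2, without overlap between the crosslinkers in either case. The ratio of Dusp6 to Dusp4 was 2.60 to 4.08 and 2.42 to 3.96, which overlapped.

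Of 58 further genes of the pathway listed by role, 57 had a row, all but Spry3. In UV-RIP 10 of them were higher in the IP, 26 lower and 21 did not pass. In fRIP 17 were higher, 12 lower and 28 did not pass. Among all genes tested, 6.6% were higher and 29% lower in UV-RIP, and 17.6% and 21.9% in fRIP. These counts depended on the processing, with 13 higher and 9 lower in UV-RIP under TMM scaling, and 11 higher and 15 lower in fRIP with the trend on gene length removed. The 10 higher in UV-RIP became 5 without replicate 3 and 6 without the replicate block, and the 12 lower in fRIP became 7 without replicate 3 and also without replicate 5. The median log2 fold change was -0.15 in UV-RIP and 0.05 in fRIP, beside -0.17 and -0.03 over all genes.

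**Figure D5:**
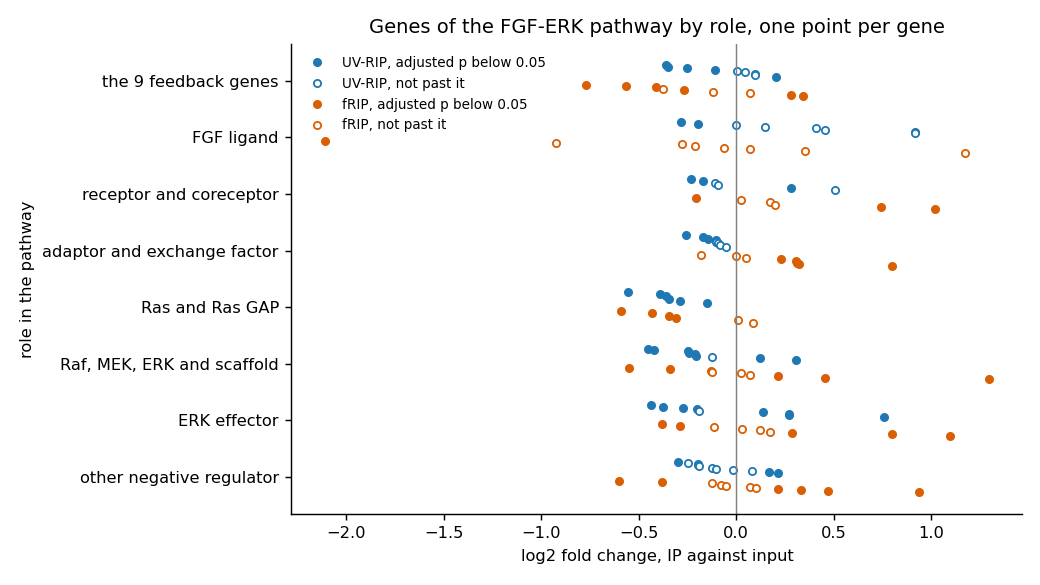
The log2 fold change of IP against input for the 9 feedback genes and for 57 further genes of the pathway by role, one point per gene, in UV-RIP (blue) and fRIP (orange), filled where the adjusted p is below 0.05. All 6 genes of Ras and its GAPs are lower in UV-RIP, with a median of -0.35, and 5 of 8 adaptors and exchange factors are higher in fRIP, up to 0.80.

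The 6 genes of Ras and its GAPs were all lower in the UV-RIP IP, where 29% of all genes were lower and the median of all genes was -0.17, and 4 of them were lower in fRIP, where 21.9% of all genes were. Of the 6, Nf1, which encodes the Ras GAP neurofibromin, passed as lower in UV-RIP at -0.15 (adjusted p = 0.000385 from edgeR) although 52% of all genes tested had lower values. By role these counts were not recomputed under other scalings. Of the kinases, Braf was lower in UV-RIP at -0.42 (adjusted p = 1.39e-22 from edgeR) and Map2k1, which encodes MEK1, at -0.24 (adjusted p = 1.62e-08 from edgeR). Of all genes tested, 25% had values at or below that of Braf and 41.6% at or below that of Map2k1, which lay near the median of -0.17. In fRIP Map2k1 was higher at 0.21 (adjusted p = 0.0212 from edgeR) and Map2k2, which encodes MEK2, at 0.46 (adjusted p = 4.16e-05 from edgeR). Braf did not pass in fRIP, at -0.13 (adjusted p = 0.22 from edgeR). Mapk3, which encodes ERK1, was lower in fRIP at -0.34 (adjusted p = 0.0116 from edgeR), while Map2k2 at 0.12 was higher in UV-RIP as well (adjusted p = 0.0184 from edgeR).

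Of the 8 adaptors and exchange factors, 4 were lower in UV-RIP (29% of all genes) and none higher, and in fRIP 5 were higher (17.6% of all genes) and none lower. Their median log2 fold change was -0.10 in UV-RIP, above the -0.17 of all genes tested, and 0.27 in fRIP. In the interaction 23 of the 57 pathway genes were higher in fRIP and 1 lower, which became 15 and 2 under TMM scaling and 4 and 5 with the length trend removed. All genes leaned the same way, with 18.6% higher, 8.07% lower and a median of 0.15. The docking protein gene Frs2 went from -0.26 in UV-RIP to 0.23 in fRIP, a difference of 0.49 (adjusted p = 0.000132, edgeR interaction test). Grb2, the adaptor that brings Sos to the receptor, went from -0.10 to 0.31, a difference of 0.42 (adjusted p = 0.000376, edgeR interaction test). Sos1, at -0.15, and Grb2 passed as lower in UV-RIP although 52.3% and 56.9% of all genes tested had lower values, and Sos1 did not pass in fRIP at 0.05. Among the receptors, Fgfr2 in UV-RIP, at -0.17 (adjusted p = 0.000636 from edgeR), equalled the median of all genes, and Fgfr3, at no more than 41 UMIs per library, was higher in fRIP at 1.02 (adjusted p = 0.00367 from edgeR). Fgfr4, Fgf5 and Fgf8, the last a few UMIs per library, passed in neither.

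Among the other negative regulators, Spred2, a paralog of Spred1, went the other way from Spred1. It had 681 ± 48.1 CPM in the UV-RIP IPs and 606 ± 4.05 in the inputs, and 578 ± 25.0 in the fRIP IPs and 304 ± 42.3 in the inputs (SD, n = 4 each). Its log2 fold change was 0.17 in UV-RIP (adjusted p = 3.08e-05 from edgeR) and 0.94 in fRIP (adjusted p = 3.13e-09 from edgeR), against -0.36 and -0.27 for Spred1. Its input was lower in fRIP by a log2 value of -0.99 (adjusted p = 3.23e-07 from edgeR). Il17rd, which encodes the membrane inhibitor Sef, was higher in fRIP at 0.33 (adjusted p = 0.000849 from edgeR).

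The phosphatase gene Dusp9 and the Sprouty gene Spry1 were lower in the fRIP IP. Of the 11 other negative regulators tested 2 were lower and 4 higher there, beside 21.9% and 17.6% of all genes, and the phosphatase gene Dusp10 was among the higher ones at 0.47 (adjusted p = 0.00697 from edgeR). Dusp9 had 14.8 ± 1.67 CPM in the fRIP IPs and 22.6 ± 4.14 in the inputs (SD, n = 4 each), a log2 fold change of -0.60 (adjusted p = 1.23e-05 from edgeR). Its fRIP inputs were above its UV-RIP inputs, at 6.51 ± 1.05 CPM (SD, n = 4), by 1.79 on the log2 scale (adjusted p = 1.98e-07 from edgeR). Spry1 was lower in fRIP at -0.38 (adjusted p = 0.0376 from edgeR), with higher fRIP inputs by 0.58 (adjusted p = 0.0118 from edgeR). Dusp7 had higher fRIP inputs by 0.92 (adjusted p = 0.000305 from edgeR) and no change of IP against input past the threshold in either crosslinker, as was the case for Dusp5. Etv1, the third factor of the PEA3 group, was lower in UV-RIP at -0.44 (adjusted p = 2.37e-14 from edgeR) and did not pass in fRIP at 0.03.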

How the data were processed

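RNA of 4 IP and 4 input libraries for each crosslinker was sequenced after ribosomal RNA depletion. Per the methods of the study and the submitters' processing notes, the authors mapped the reads to mm10 with STAR, kept uniquely mapped reads and deposited raw UMI counts for each GENCODE vM16 gene body. The strand setting is not given in the sources used here. Groups follow the sample titles.

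IP was compared with input by edgeR 4.0.16 (quasi-likelihood test, R 4.3.3) with total UMIs as library size and the replicate number as a block, for 22936 genes that reached 3 UMIs in 1 or more libraries, and adjusted p is by Benjamini-Hochberg over these. The interaction was fitted on all 16 libraries, blocked by plate, and the inputs were compared without a block. CPM are UMI counts relative to the library total. DESeq2 1.42.0, other scalings and filters, trends on length and GC content and each replicate left out were alternatives. The scripts were tested on simulated data.

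The pairing of IP and input comes from the shared lysate. Correlations between the deviations of an IP and of its own input from the group means were 0.028 to 0.435 in UV-RIP and 0.114 to 0.595 in fRIP over 10208 genes. Between replicates the spread exceeded sampling noise (chi-square per degree of freedom 1.52 to 60.0). Biological replicates are separate plates of 1 line, so p-values measure the spread between plates.

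Gene models are GENCODE vM21 on GRCm38, matched on identifier and version for 50604 genes and on identifier alone for 2670. Spry4 is among the latter, so no coordinates are given for it. The text names all 9 members, other pathway genes from a list of 22 names, some of which are not reported here, Sox2, and for each member the gene with the most similar level. Gm26917, Gm42418, Gm16159, Sox2ot, Spry3, Dusp10, Nf1, Cdx2, Dnmt3b and Tfap2c were named after their values were seen. The members and lists were chosen with earlier results of these data known.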

Additional observations from a re-analysis of the deposited data

Results flagged for a closer look

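The lowest Fgfr1 value stood apart from the other 3 in the inputs of both crosslinkers. In the UV-RIP inputs replicate 3 had 86.1 CPM and the others 91.8 to 92.8, and in the fRIP inputs replicate 4 had 84.8 CPM and the others 118 to 124. These were 2 of 54 groups of 4 values examined, and chance alone sets about 1 in 20 groups apart in this way.

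The enrichment of 2 members differed between the crosslinkers in the interaction test. For Fgf4 the log2 fold change was lower in fRIP than in UV-RIP by a value of -0.46, and this difference held its direction and its call under every alternative run. The run on gene length placed Fgf4 at its annotated length, and a length counted from its RefSeq start was not tried. For Etv5 the log2 fold change was higher in fRIP by 0.24, which did not hold under other scalings.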

How the results depend on the processing

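Counts of members past the threshold moved most in UV-RIP, where the 1 higher and 4 lower became 3 and 1 under TMM scaling, with library sizes without Gm26917 and Gm42418 and with the length trend removed, 2 and 1 with median-of-ratios size factors in DESeq2, and 2 and 0 with the GC trend removed. DESeq2 with total UMIs gave 2 lower, and leaving out a replicate 2 to 4. The UV-RIP value of Fgf4 turned to 0.072 under TMM, 0.045 without Gm26917 and Gm42418, 0.064 with median of ratios, 0.059 with the length trend removed and 0.0099 with the GC trend removed, and Spred1 to 0.037 (fRIP 0.018) with the GC trend removed. In fRIP, 0 higher and 2 lower (Spred1 and Fgf4) were left with the length trend removed, for which Fgf4 was placed at its annotated length. In the interaction, the 1 higher member (Etv5) became 0 under TMM, without Gm26917 and Gm42418, with median of ratios and with either trend removed (-0.035 for length), and was 0 to 1 with a replicate left out. The lower members became 2 under those 3 scalings, 3 with the GC trend removed and 1 to 2 with a replicate left out. In the inputs, 1 member (Etv5) became lower without Gm26917 and Gm42418. The median input level of 1.05 CPM per kb of gene body was 8.80 per kb of merged exons. The causes were not tested.

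Without the replicate block, 2 members were lower in UV-RIP and 0 were higher in the interaction. The calls lost were Dusp6 and Fgf4 in UV-RIP, Spred1 in fRIP and Etv5 in the interaction, and it changed no other call among the members. UMI counts of 12 to 34 limit Dusp4, and those of 29 to 72 limit Spry4.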
